A study of Mus musculus with 5 samples.

Results

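Tenocyte-like cells are cells that carry transcripts typical of tendon, and 541 of them were found in a single-cell RNA sequencing library of sorted cells from resting mouse hindlimb muscle. A cell was counted as tenocyte-like when it had at least 500 detected genes, at most 10% of its unique molecular identifiers (UMIs, counted transcript molecules) from the mitochondrial genome, and at least 1 UMI of at least 3 of 7 genes: Tnmd, Scx, Kera, Fmod, Chodl, Cilp2 and Mkx. They made up 6.67% of the 8107 cells that passed the filter on genes and mitochondrial UMIs (95% exact binomial interval 6.14 to 7.24), and the other 7566 kept cells of the same library served for comparison. The library came from a C57BL/6J mouse background with the genotype Hic1CreERT2/CreERT2;Rosa26LSLtdTomato/+. In these animals a tamoxifen-inducible Cre recombinase is driven from both copies of Hic1, a gene of mesenchymal progenitors, and switches on 1 copy of the red reporter tdTomato, so the sort on tdTomato holds cells in which Hic1 was active at the time of tamoxifen and their offspring. Tamoxifen was given at 8 weeks of age on 5 days in a row, 2.5 mg in 100 µL of oil each time, and a washout of 10 days followed. Besides this muscle library the series holds 4 libraries of tdTomato-positive epithelioid sarcoma cells (Hic1CreERT2/CreERT2;Rosa26LSLtdTomato/LSLtdTomato;Smarcb1FL/FL), in which Smarcb1 can be deleted as well. The labels do not say whether the muscle library came from 1 animal or from a pool.

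There is 1 muscle library, so no value here has a replicate, no test between groups of cells was possible and none was made. Values are levels in CPM, the UMIs of a gene summed over a group of cells per 1000000 UMIs of that group, and intervals cover counting error only. The tenocyte-like cells held 4134541 UMIs, with a median of 6773 per cell, and the other kept cells held 59166458, with a median of 7629.5. Their median share of mitochondrial UMIs was 3.40%, against 2.42% in the other cells. No barcode of a tenocyte-like cell recurred in any of the 4 sarcoma libraries. Few muscle barcodes recurred at all: 18, 22, 16 and 12 of the 8658 in sarcomas 1 to 4. The absence among 541 cells is thus no sign of a difference from the other cells. The cells were chosen by the UMIs of the 7 genes, so the levels of these genes are a description only, and they are left out of every count of genes against the other cells.

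Tenocytes are the resident fibroblasts of tendon. They lie in rows between parallel bundles of type I collagen, which they secrete and maintain, and carry load between muscle and bone. Scleraxis (Scx), a basic helix-loop-helix transcription factor, marks the tendon lineage and its progenitors, and Mohawk (Mkx), a homeobox factor, acts in the maturation of collagen fibrils. Tenomodulin (Tnmd) is a membrane glycoprotein of mature tenocytes whose expression depends on Scx in the mouse. Within skeletal muscle, tendon reaches into the tissue along aponeuroses and ends at the myotendinous junction, where muscle fibres anchor to the collagen matrix.

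Fmod, which encodes the collagen-binding proteoglycan fibromodulin, was the most widely detected of the 7 genes, with a UMI in 537 of the 541 (99.3%, 95% exact binomial interval 98.1 to 99.8), a median of 31 UMIs per cell and a highest cell of 238. Tnmd followed in 517 of the 541 (95.6%, 95% exact binomial interval 93.5 to 97.1), with a median of 22 UMIs and a highest cell of 272. Cilp2, a matrix protein gene of the cartilage intermediate layer family, was detected in 500 cells and Scx in 447. Chodl, which encodes the membrane lectin chondrolectin, was detected in 438 cells and Kera, which encodes the proteoglycan keratocan, in 429. Mkx was the sparsest, with a UMI in 228 of the 541 (42.1%, 95% exact binomial interval 37.9 to 46.4) and a highest cell of 7, and in 146 cells it was the only one of the 7 without a UMI. Summed over cells, Tnmd stood at 3954 CPM in tenocyte-like cells and 7.61 in the other cells, Fmod at 5152 and 6.56 CPM, Scx at 916 and 1.13 CPM, Kera at 1425 and 2.26 CPM, Chodl at 1510.0 and 8.69 CPM, Cilp2 at 1126 and 1.61 CPM and Mkx at 93.1 and 0.372 CPM. All 7 genes were thus under 10 CPM in the cells that were not chosen.

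Most tenocyte-like cells passed the rule with room to spare. Exactly 3 genes were detected in 29 cells, 4 in 51, 5 in 104, 6 in 214 and all 7 in 143. On the other side of the threshold 6633 cells had none of the genes, 864 had 1 and 69 had exactly 2. The 29 cells just inside had Thbs4, a secreted thrombospondin of tendon matrix that the rule did not use, at 2667 CPM, and the 69 cells just outside had it at 965 CPM, while cells with 4 to 7 of the genes had between 11323 and 12610.5 CPM and cells with none had 246 CPM. Ptx4, a pentraxin gene, also climbed but kept rising within the tenocyte-like cells. It stood at 1.65 CPM at 2 genes, 28.6 at 3, 262 at 4, 599 at 5, 814 at 6 and 914 at 7. Pdgfra, the receptor that marks mesenchymal progenitors, ran the other way, at 446 CPM in cells with none of the genes, 385 at 2, 261 at 3 and 35.2 at 7. Summed over the 29 cells with exactly 3 genes, the levels of Thbs4, Ptx4 and Pdgfra were thus intermediate. Whether single cells were intermediate or the group was mixed was not tested. Of these 29 cells 17 carried at least 3 of 7 progenitor markers, and Ptx4 was found in 17.2% and Pdgfra in 55.2%. Median depth was 8174 UMIs at 3 genes, 4503 at 4, 5478 at 5, 6300 at 6 and 9046 at 7.

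**Figure D1:**
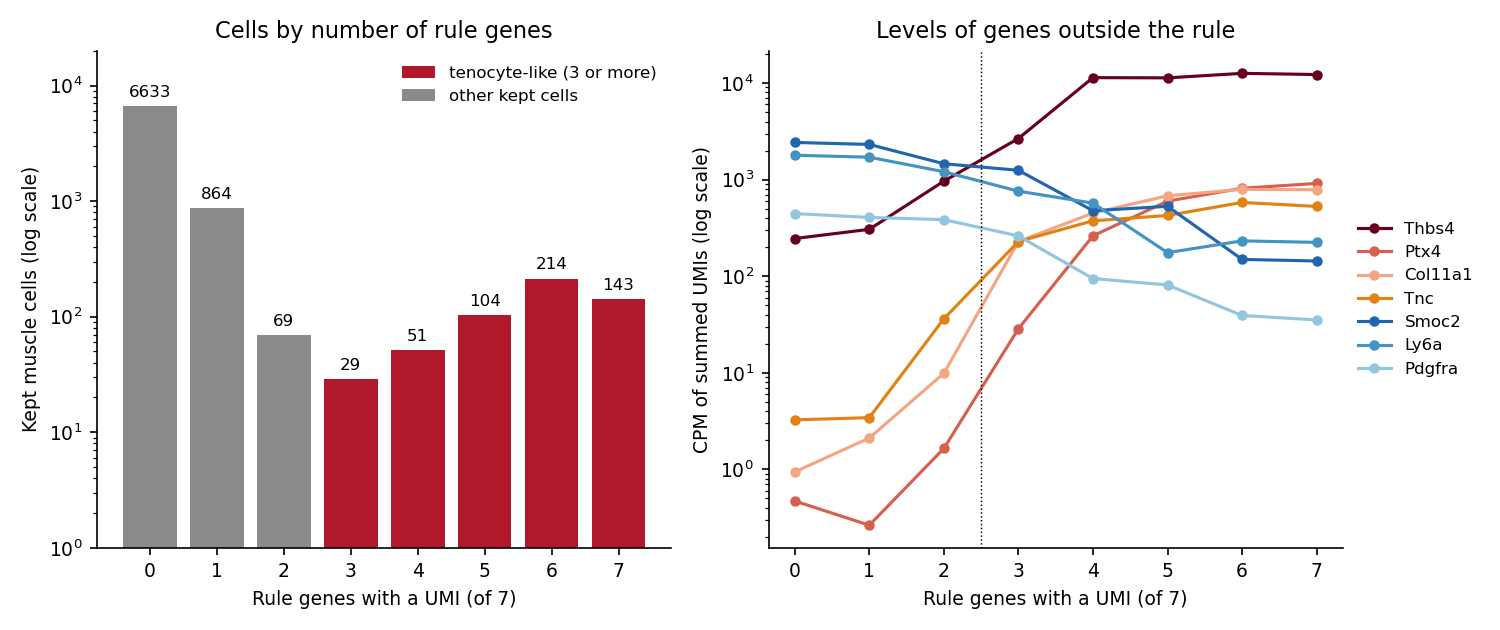
Left, kept muscle cells (log scale) by how many of the 7 rule genes had a UMI, tenocyte-like cells in red and other cells in grey; right, levels (CPM of summed UMIs, log scale) of 7 genes outside the rule over the same cells, with the dotted line at the threshold. Counts fall to 29 cells at 3 genes and climb to 214 at 6, and Thbs4, Ptx4, Col11a1 and Tnc climb while Smoc2, Ly6a and Pdgfra decline.

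Scx binds the E-box, a short DNA motif, so the windows just upstream of the genes that the cells share were read for it. The RefSeq promoter table (GRCm38.p6) holds 5 of the 7 rule genes, and the windows of 250 bases before the start are shown for 3 of them, for Thbs4, a tendon matrix gene outside the rule found in nearly every tenocyte-like cell, and for Angptl7, by which the cells are divided later. Capitals mark the E-box CANNTG, which reads alike on both strands.
Tnmd (chrX:133850758-133851007, plus strand): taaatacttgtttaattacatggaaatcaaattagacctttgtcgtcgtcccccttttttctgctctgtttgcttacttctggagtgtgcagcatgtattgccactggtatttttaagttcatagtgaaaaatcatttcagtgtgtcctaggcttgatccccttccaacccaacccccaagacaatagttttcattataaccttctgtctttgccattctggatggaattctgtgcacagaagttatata
Fmod (chr1:134037004-134037253, plus strand): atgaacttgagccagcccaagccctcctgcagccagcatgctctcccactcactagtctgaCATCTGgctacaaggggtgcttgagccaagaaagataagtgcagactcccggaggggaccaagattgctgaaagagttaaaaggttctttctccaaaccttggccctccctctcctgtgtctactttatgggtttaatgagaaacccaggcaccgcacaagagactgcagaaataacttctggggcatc
Chodl (chr16:78930698-78930947, plus strand): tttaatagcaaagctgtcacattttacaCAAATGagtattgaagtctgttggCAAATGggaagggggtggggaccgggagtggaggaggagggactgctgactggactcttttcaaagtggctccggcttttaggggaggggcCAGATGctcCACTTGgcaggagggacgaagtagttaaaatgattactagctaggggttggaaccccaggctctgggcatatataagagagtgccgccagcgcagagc
Thbs4 (chr13:92794819-92795068, minus strand): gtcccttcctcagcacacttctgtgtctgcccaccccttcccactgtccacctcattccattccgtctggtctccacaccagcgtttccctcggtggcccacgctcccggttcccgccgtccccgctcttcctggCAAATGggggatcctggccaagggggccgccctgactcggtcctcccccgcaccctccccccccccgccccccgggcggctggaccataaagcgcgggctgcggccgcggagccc
Angptl7 (chr4:148500463-148500712, minus strand): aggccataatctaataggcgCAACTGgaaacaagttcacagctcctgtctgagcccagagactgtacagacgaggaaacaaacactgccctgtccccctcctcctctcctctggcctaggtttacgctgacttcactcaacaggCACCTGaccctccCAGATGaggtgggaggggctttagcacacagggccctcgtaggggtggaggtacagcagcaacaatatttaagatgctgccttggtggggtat
The windows of Kera and Cilp2, with 0 and 1 CANNTG, lie within annotated transcripts and are not shown. That of Tnmd runs past the start of Tnmd in the reference annotation, at 133850980, and so lies partly within its annotated transcript. The Tnmd window held no CANNTG, those of Fmod and Thbs4 held 1 each, that of Angptl7 held 3 and that of Chodl held 4. Of 32851 promoter windows of the same length in the table, 66.2% held at least 1 CANNTG. The form CAGATG, counted on both strands and a special case of CANNTG, was found once each in the Fmod, Chodl and Angptl7 windows and in 14.4% of all windows. A match is a description of the letters and not evidence of binding.

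In the reference annotation (GRCm38) Tnmd lies on chromosome X from 133850980 to 133865577, Fmod on chromosome 1 from 134037254 to 134048277, and Scx on chromosome 15 from 76457452 to 76459458. Scx lies within Bop1, a ribosome assembly gene on the opposite strand, and Angptl7 (chromosome 4, 148495183 to 148500460) within Mtor on the opposite strand. Col22a1 on chromosome 15 overlaps the antisense gene Gm16308, Tnc overlaps 8030451A03Rik and Chad overlaps Acsf2, in each case on opposite strands. How reads in such overlaps were assigned is not given in the sources used here, so the counts of these genes are uncertain to that extent.

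The label was set beside tendon genes outside the rule and markers of the other cell types that the sort could hold. The gene lists were chosen with earlier results of these data known, so this is a description and no test. Thbs4 was detected in 98.9% of tenocyte-like cells, with a median of 69 UMIs per cell and a highest cell of 482. After every cell was thinned to 2000 UMIs, Thbs4 was detected in 97.7% of tenocyte-like cells, 16.3% of cells with progenitor markers, 6.58% of cells with mural markers and 7.89% of cells with glial markers. Thinning left out 25 tenocyte-like cells and 359 others as too shallow. Col11a1 was found in 67.1%, 0.267% and 0.292% of tenocyte-like, progenitor and mural cells at that depth. Without thinning the Thbs4 shares were 98.9%, 27.7%, 12.2% and 36.8% in the same order. Before thinning the median depths were 6773 UMIs in tenocyte-like, 3494 in mural and 9423 in glial cells. Free RNA in the library was not estimated.

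Markers of other cell types were not absent from the chosen cells. The 7 progenitor markers summed to 1297 CPM in tenocyte-like cells and 7577 in the other cells, with none at 0, and 143 tenocyte-like cells (26.4%) had a UMI of at least 3 of them, against 88.8% of the other cells. The 143 were deeper, at a median of 8847 UMIs, than the remaining tenocyte-like cells at 6109.5. The 8 mural markers, of the contractile cells around vessels, summed to 195 and 850.2 CPM, and 15 tenocyte-like cells had at least 3 of them, at a median of 10682 UMIs. At least 3 of the 7 glial markers were found in 1 tenocyte-like cell and in 38 of the other cells. The 6 endothelial markers summed to 12.6 and 5.39 CPM with Tie1 and Cldn5 at 0 in tenocyte-like cells, the 5 haematopoietic markers to 1.93 and 0.727 CPM with Cd53 at 0, and the 6 myogenic markers to 17.9 and 40.7 CPM with Myod1 at 0. The chondrocyte markers summed to 108 and 36.7 CPM, and 4 tenocyte-like cells and none of the others had at least 3 of the 5 measured. The part of deeper cells or doublets in these markers was not tested. The doublet caller Scrublet marked 5 of the 8107 cells, 3 of them tenocyte-like, and its calls were not used to remove cells. Of the tenocyte-like cells 51 (9.43%) lay in the highest 6% of its scores.

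**Figure D2:**
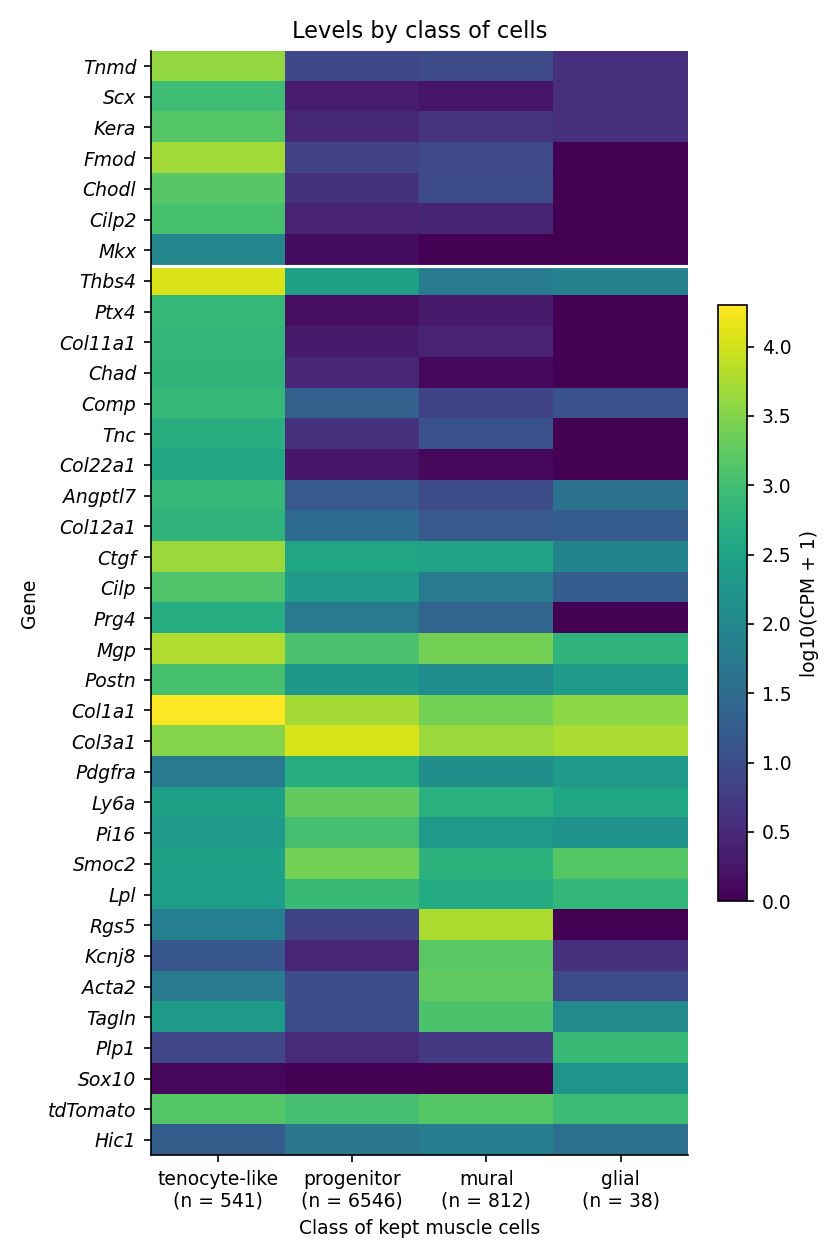
Levels as log10(CPM + 1) of 36 genes (rows) in 4 classes of kept muscle cells (columns, tenocyte-like leftmost), with the 7 rule genes above the white line; progenitor, mural and glial cells are cells outside the rule with at least 3 of their own markers, so those marker rows chose the classes. Thbs4 stood at 11627 CPM in tenocyte-like cells and 278, 60.2 and 77.6 in progenitor, mural and glial cells.

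The cells also held together when the 7 genes were taken away. Clustering of all 8107 kept cells without the rule genes gave 19 clusters, and 492 of the 541 tenocyte-like cells (90.9%) fell in 1 cluster that held no other cell. The remaining 49 were spread over other clusters and had a median of 3 rule genes, where those inside had 6. Of these 49, 30 carried at least 3 progenitor markers and 7 at least 3 mural markers, and 25 lay in a cluster led by Adamts8, Stmn2, Clu, Hmcn1 and Prg4, the gene of the joint and tendon sheath lubricant lubricin. At a higher resolution of 2.0 the largest cluster held 259 tenocyte-like cells and the next held 229, and neither held any other cell. Clusters use every other gene of the same cells, so this describes the cells and is no test.

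Across 15225 genes with at least 10 UMIs, 253 (1.66%) were at least 2-fold higher in tenocyte-like cells and 366 (2.4%) at least 2-fold lower, with 50 CPM or more in the higher group. For 25 of the 253, the call was lost when the 2 cells with most of the gene's UMIs were left out. Of the 3503 genes that reached 50 CPM, these were 7.22% and 10.4%. These shares over all genes are the background for every list count below. The widest gap was that of Ptx4, at 733 CPM in tenocyte-like cells and 0.456 in the other cells, a log2 ratio of 10.65 (95% counting interval 10.11 to 11.25), and it was detected in 80.4% of tenocyte-like cells. Col11a1, a chain of type XI collagen that nucleates thin fibrils, stood at 718 and 1.18 CPM, a log2 ratio of 9.24 (95% counting interval 8.90 to 9.61), with a UMI in 88.5% of tenocyte-like cells. Its partner chain Col11a2 stood at 201 and 0.558 CPM. Col22a1, whose product is a collagen of the myotendinous junction, stood at 375 and 0.794 CPM, a log2 ratio of 8.88 (95% counting interval 8.47 to 9.33), and Chad, which encodes the collagen-binding protein chondroadherin, at 657 and 1.79 CPM. Levels of these genes varied widely among the cells: the median cell had 3 UMIs of Ptx4 and 4 of Col11a1, and the highest had 46 and 57. Detection was partial for Col22a1 and Chad, found in 43.4% and 42.3% of the cells, with highest cells of 63 and 106 UMIs.

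The other genes among the 20 with the largest ratios were of mixed kinds. Tnc, the matrix glycoprotein tenascin-C, stood at 505 and 3.62 CPM in tenocyte-like and other cells. Col2a1, the main collagen of cartilage, stood at 70.6 and 0.254 CPM, the membrane collagen gene Col13a1 at 135 and 1.18 CPM and Col26a1 at 120.0 and 1.59 CPM. Among secreted regulators, the WNT inhibitor gene Wif1 stood at 119 and 0.423 CPM, Wisp1 of the CCN family at 209 and 2.57 CPM, Scube2, which helps release hedgehog ligands, at 158 and 1.06 CPM, and the testican gene Spock3 at 109 and 1.10 CPM. Several encode proteins inside the cell: Prph, an intermediate filament known from peripheral neurons, at 241 and 1.72 CPM, Insc, an adaptor of spindle orientation, at 140.0 and 0.439 CPM, the proton pump subunit gene Atp6v0a4 at 106 and 0.473 CPM, and Zfp185 at 75.7 and 0.372 CPM. Fam159b stood at 77.9 and 0.0507 CPM, with 3 UMIs in all other cells together, a log2 ratio of 10.58 (95% counting interval 9.02 to 12.87). Gm525 (63.9 and 0.0845 CPM) was found in 17 of the 541 cells, and 1 of them held 38.6% of its UMIs.

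**Figure D3:**
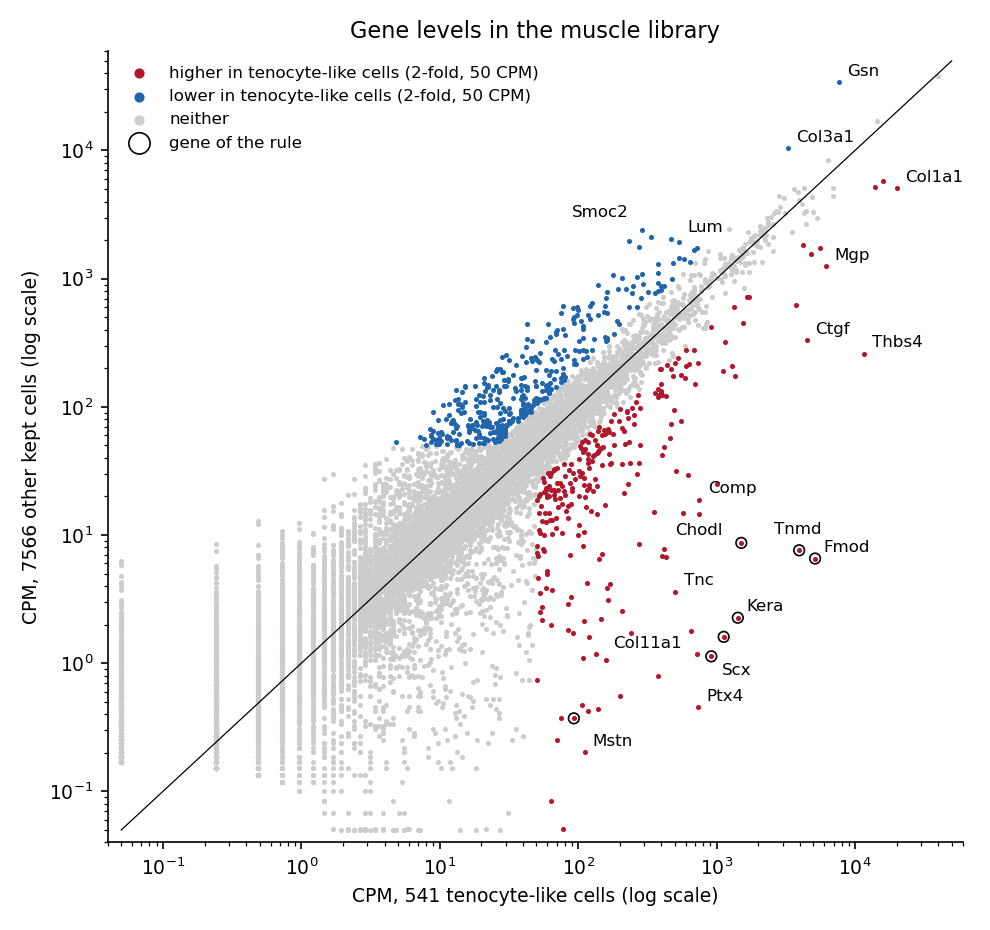
Level of each gene with at least 10 UMIs in the 541 tenocyte-like cells (x axis) and the 7566 other kept cells (y axis), both in CPM on log scales, with values of 0 drawn at 0.05; red and blue points are past 2-fold and 50 CPM and circled points are the 7 rule genes. Thbs4, Ptx4, Col11a1 and Tnc lie to the right of the diagonal and Gsn, Col3a1, Smoc2 and Lum to the left.

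Genes of tendon matrix were mostly higher in tenocyte-like cells. Of 36 such genes outside the rule, 26 were higher and 5 lower in tenocyte-like cells, 35 of them reached 50 CPM, and their median log2 ratio was 1.88, where that of all genes was -0.02. The structural base of tendon, type I collagen, was higher, and every one of the 541 cells had a UMI of Col1a1, with a median of 110 and a highest cell of 1472. Col1a1 stood at 20038 and 5112 CPM (log2 ratio 1.97) and Col1a2 at 14072 and 5199 CPM. Genes for proteins that bind or space collagen fibrils were higher as well, with Bgn (biglycan) at 1662 and 716 CPM, Prelp at 599.6 and 210.0 CPM, Aspn at 691 and 278 CPM and Col12a1, a collagen that lies on the surface of type I fibrils, at 622 and 29.2 CPM. Angptl7, a secreted angiopoietin-like protein, stood at 742 and 14.7 CPM, Cilp at 1285 and 209 CPM and Postn, the matrix protein periostin, at 1112 and 189 CPM. The 5 lower genes were Lum (538 and 1932 CPM), Tnxb (296 and 910.4 CPM), Col5a1 (267 and 604 CPM), Col14a1 (102 and 324 CPM) and P4ha2 (31.0 and 159 CPM). Dcn, which encodes the proteoglycan decorin, was past 2-fold in neither direction, at 14404 and 16946 CPM.

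The collagens divided by type. Among 19 fibrillar and fibril-associated collagen genes, 8 were higher and 4 lower in tenocyte-like cells, with a median log2 ratio of 1.77. Besides type I, XI, XII, XXII and II collagen, Col16a1 was higher at 233 and 53.4 CPM. Col3a1, the collagen of compliant connective tissue, was lower at 3266 and 10406 CPM (log2 ratio -1.67), as were Col5a1, Col14a1 and Col5a3, the last at 195 and 831 CPM. Among 22 network, basement membrane and other collagen genes 5 were higher and 5 lower: Col8a1 (216 and 64.9 CPM), Col8a2 (84.2 and 2.89 CPM), Col18a1 (198 and 78.1 CPM), Col13a1 and Col26a1 were higher, and Col4a1 (488 and 1336 CPM), Col15a1 (98.7 and 604 CPM), Col6a3, Col6a6 and Col4a5 were lower.

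Of 11 thrombospondin, matrilin and tenascin genes 6 were higher and 1 lower, with a median log2 ratio of 4.10. Thbs4 stood at 11627 and 261 CPM (log2 ratio 5.48 (95% counting interval 5.45 to 5.50)), and its close relative Comp, the cartilage oligomeric matrix protein, at 752 and 18.9 CPM. Thbs1 stood at 402 and 41.9 CPM, Thbs2 at 397 and 133 CPM and Matn4 (matrilin-4) at 274 and 8.57 CPM, while Tnxb was the lower one. The summed level of the 13 genes was 14414 CPM in tenocyte-like cells and 1546 in the other cells, most of it Thbs4. Of 15 small leucine-rich proteoglycan genes outside the rule 6 were higher and 2 lower, with Omd (osteomodulin) at 95.3 and 27.4 CPM and Podn at 23.7 and 173 CPM.

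Of 32 genes that process and crosslink collagen, 24 of which reached 50 CPM, 3 (9.4%) were higher and 4 (12.5%) lower. Of all genes 1.66% were higher and 2.4% lower. The other 25 genes of the list were not called, and its median log2 ratio was 0.37. Lox, the lysyl oxidase that starts collagen crosslinks, was higher at 238 and 36.4 CPM, and Sparc, a collagen-binding matrix protein, at 15911 and 5756 CPM, with P3h4 the third at 106 and 53.0 CPM, just past 2-fold. Serpinh1, the collagen chaperone, stood at 1711 and 1321 CPM and was within 2-fold. Lower were P4ha2, Pcolce2 (122 and 488 CPM), Bmp1 (96.5 and 214 CPM) and Adamts2 (126 and 279 CPM), the last 3 of which act in cleaving procollagen. None of 26 secretory pathway and unfolded protein genes was past 2-fold with 50 CPM in either direction, with Hspa5, the main chaperone of the endoplasmic reticulum, at 620.4 and 492 CPM. Of 16 elastic fibre genes, 14 of which reached 50 CPM, 5 (31.25%) were higher and 6 (37.5%) lower. Mfap4 (1371 and 174 CPM), Mfap2, Fbln1, Emilin1 and Ltbp3 were higher, and Eln, the gene of elastin itself (109 and 426 CPM), Fbn1 (376 and 1302 CPM), Mfap5, Fbln2, Efemp1 and Emilin2 were lower. Of 28 matrix proteases and inhibitors only Timp1, an inhibitor of matrix metalloproteinases, was higher (508 and 31.7 CPM), and 4 were lower, among them Adamts5 (92.6 and 505 CPM) and Htra3 (248 and 874 CPM).

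**Figure D4:**
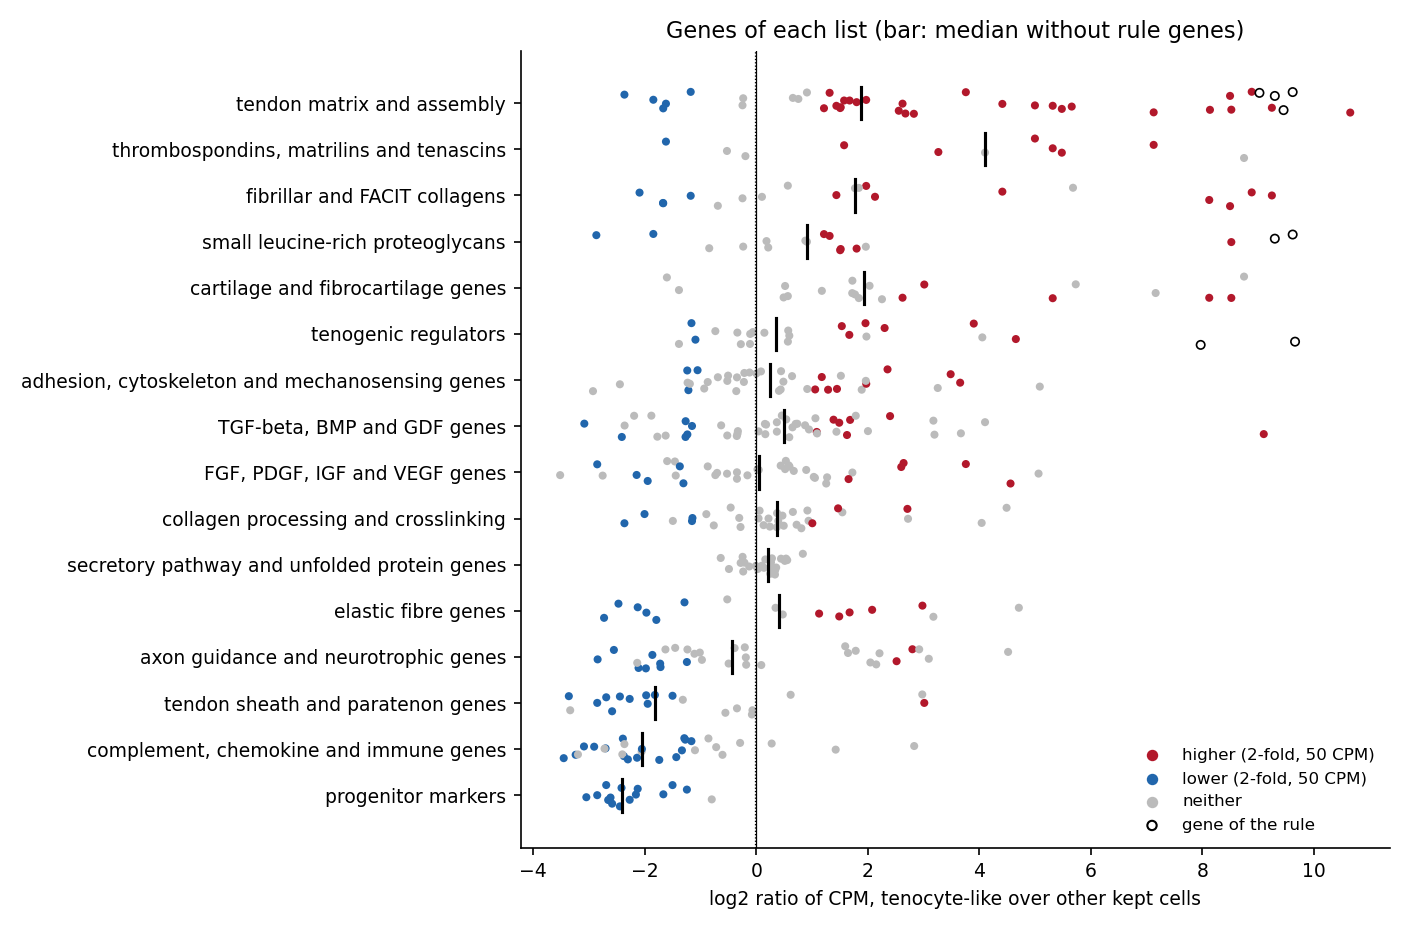
The log2 ratio of CPM (x axis, tenocyte-like over other kept cells) of each gene with at least 10 UMIs, by gene list (rows); red and blue points are past 2-fold and 50 CPM, grey points are not, open circles are rule genes, the black bar is the list's median without them and the dotted line the median of all genes. The medians were 4.10 for thrombospondins, matrilins and tenascins, 1.88 for tendon matrix and -2.42 for progenitor markers.

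Genes known from cartilage were present in part. Of 20 cartilage and fibrocartilage genes 5 were higher and none lower, and only 6 of them reached 50 CPM: Cilp, Comp, Chad, Col2a1, Prg4 (462 and 57.2 CPM) and Trps1, the last within 2-fold. Sox9, the master regulator of cartilage, stood at 13.8 and 36.0 CPM, while Sox6 was at 39.4 and 0.744 CPM. Acan, the core protein of aggrecan, stood at 0.967 and 0.237 CPM. Of 12 bone and mineral genes Mgp, the matrix Gla protein that inhibits calcification (6151 and 1256 CPM), and Ank, a pyrophosphate transporter (60.0 and 20.6 CPM), were higher. Of 19 tendon sheath and paratenon genes Prg4 alone was higher and 10 were lower, among them Tppp3, a marker of sheath cells (157 and 618 CPM). Several of the 10, such as Pdgfra, Ly6a, Cd34 and Pi16, are also in the progenitor list.

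Among transcription factors and other regulators linked to tendon, 6 of 22 genes outside the rule (27.3%) were higher and 2 (9.1%) lower. Of these 22 genes 14 reached 50 CPM. Meox2 stood at 282 and 97.3 CPM and Meox1 at 140.3 and 44.1 CPM; both are homeobox genes of somite derivatives. Six2 stood at 52.7 and 3.53 CPM, its cofactor Eya2 at 64.8 and 13.1 CPM, the ETS factor gene Etv4 at 54.9 and 2.18 CPM and Egr2, a zinc finger gene, at 57.8 and 14.9 CPM. Egr1, which acts in tendon repair in the mouse, was within 2-fold at 1500.3 and 1622 CPM. Klf4 (362 and 771 CPM) and Tcf7l2 (74.7 and 167 CPM) were lower. Of 28 limb position genes 6 reached 50 CPM, and none of these was past 2-fold. Hoxc10 stood at 73.0 and 66.5 CPM and Hoxa10 at 66.5 and 63.5 CPM.

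Signalling genes had members called in both directions in each family. Of all genes 1.66% were higher and 2.4% lower, or 7.22% and 10.4% of those that reached 50 CPM. Of 46 TGF-beta, BMP and GDF genes, 25 of which reached 50 CPM, 7 (15.2%) were higher and 6 (13.0%) lower. Their median log2 ratio was 0.50. Tgfb3, a ligand that acts in tendon development in the mouse, stood at 102 and 39.0 CPM, the receptor gene Tgfbr1 at 70.6 and 33.3 CPM, the latent TGF-beta binding gene Ltbp3 at 230.5 and 82.2 CPM, Inhba at 53.9 and 16.8 CPM, and the pathway's inhibitor Bambi at 81.8 and 15.5 CPM. Fst, which encodes the activin and myostatin antagonist follistatin, was lower at 29.99 and 254 CPM, and Bmp4 at 32.2 and 77.4 CPM. Of 37 FGF, PDGF, IGF and VEGF genes, 21 of which reached 50 CPM, 5 (13.5%) were higher and 5 (13.5%) lower. The ligand gene Pdgfa stood at 356 and 15.1 CPM while its receptor gene Pdgfra was lower at 60.9 and 439.9 CPM, and after thinning Pdgfa was detected in 47.3% of tenocyte-like, 21.6% of mural and 0.753% of progenitor cells. Ctgf, a target of YAP and TGF-beta signalling, stood at 4478 and 331 CPM, with a UMI in 90.9% of the cells, a median of 17 and a highest cell of 267, and Cyr61 at 3770.2 and 622 CPM. Dusp6 (84.9 and 13.6 CPM) and Spry4 (76.4 and 24.3 CPM), which are induced by and dampen FGF signalling, were higher. Of 39 WNT and hedgehog genes, 11 of which reached 50 CPM, 7.69% were called in each direction. Wif1, Sfrp2 and Fzd1 were higher and Wnt11, Dkk2 and Fzd4 lower. Sfrp2 was found in 42 tenocyte-like cells, 2 of which held 45.2% of its UMIs, and without these it stood at 58.0 CPM against 47.6, under 2-fold.

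Of 38 adhesion, cytoskeleton and mechanosensing genes, 24 of which reached 50 CPM, 8 (21.1%) were higher and 3 (7.9%) lower. Both stretch-gated ion channel genes were higher, Piezo1 at 68.9 and 13.5 CPM and Piezo2 at 59.3 and 5.29 CPM, though each was sparse, with Piezo1 in 13.6% and 2.79% and Piezo2 in 11.4% and 1.14% of tenocyte-like and other cells after thinning. The cell junction cadherins Cdh2 (87.6 and 6.95 CPM) and Cdh11 (80.3 and 20.5 CPM) were higher, as were Wwtr1, which encodes the YAP partner TAZ (174 and 76.9 CPM), Tpm1 (377 and 138 CPM), Tagln (226 and 92.5 CPM) and the hyaluronan receptor gene Cd44 (103 and 49.4 CPM). For Tagln 2 cells held 41.0% of the UMIs and without them it stood at 135 CPM, under 2-fold, and without its 2 highest cells Cd44 fell just short of 2-fold, at 97.6 CPM. Ddr2, a collagen receptor gene, was lower at 93.6 and 218 CPM, and Cav1 and Acta2 were lower too. Against cells with a Pdgfra UMI alone, the log2 ratio of Acta2 was 1.43. In the axon guidance list of 32 genes, 12 of which reached 50 CPM, 6.25% were higher and 25% lower. Sema3b (114 and 16.4 CPM) and Nrp2 (56.8 and 9.94 CPM) were higher. Among the 8 lower were the receptor gene Ret (8.95 and 64.3 CPM) and the neurotrophin gene Ntf3 (27.1 and 89.4 CPM).

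Genes lower in tenocyte-like cells included those of the mesenchymal progenitors that filled most of the library. Of 15 progenitor markers 14 were lower and none higher, with a median log2 ratio of -2.42. Smoc2 stood at 291 and 2404 CPM, the surface antigen gene Ly6a (Sca-1) at 275 and 1774 CPM, Cd34 at 177 and 1063 CPM, Pi16 at 209 and 1008 CPM and Gsn, the actin-severing gelsolin, at 7641 and 34107 CPM. Myoc was the exception within 2-fold, at 825 and 1435 CPM. After thinning, Ly6a was detected in 13.6% of tenocyte-like cells and 78.2% of the others, and Pdgfra in 8.14% and 51.6%. The 20 genes with the smallest ratios ranged in log2 ratio from -3.45 for the chemokine gene Ccl8 to -2.99 for AI607873. They held Dpep1, a membrane dipeptidase gene, at 42.6 and 446 CPM, Hsd11b1, the cortisol-regenerating enzyme, at 15.2 and 144 CPM, Has1, a hyaluronan synthase, at 8.95 and 91.9 CPM, the ion channel gene Scn7a at 10.6 and 103 CPM, the cell adhesion gene Vtn (vitronectin) at 28.3 and 247 CPM and Plau, the urokinase gene, at 42.6 and 340.0 CPM.

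Genes of complement and chemokines leaned to lower levels in tenocyte-like cells, 16 of 29 lower and none higher, with a median log2 ratio of -2.05. The complement genes C4b (15.2 and 144 CPM), C3 (126 and 651 CPM) and C1s1 (118 and 519 CPM) and the complement inhibitor gene Serping1 (579 and 1416 CPM) were lower. So were the chemokine genes Ccl11 (233 and 1980.0 CPM), Cxcl12 (91.2 and 593 CPM), Cxcl14 (537 and 1451 CPM) and Cxcl1 (77.6 and 407 CPM), and Il33 (14.0 and 105 CPM). Cxcl14 was lower in summed level only, with a UMI in 61.7% of tenocyte-like and 46.7% of other cells. Of 18 lipid and adipogenic genes 5 were lower and none higher, among them Lpl, the lipoprotein lipase (243 and 771 CPM), and Fabp4, found in 16 tenocyte-like cells, of which 2 held 83.8% of its UMIs. Most of the library was progenitors, so these ratios measure tenocyte-like cells largely against progenitors.

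The remaining lists varied. Of all genes 1.66% were higher and 2.4% lower, or 7.22% and 10.4% of those that reached 50 CPM. In the mural list 42.9% were lower, in the synovial and chondrocyte list 33.3% were higher, and in the immediate-early list 13.0% were higher. Of 23 genes of the immediate-early and heat-shock responses, which tissue dissociation can set off, Btg2 (911 and 421 CPM), Ier3 (396 and 150.2 CPM) and Egr2 were higher and none lower, with Fos at 4419 and 2657 CPM and Hspa1a at 3062 and 4231 CPM. Of 26 glycolysis and hypoxia genes, 12 of which reached 50 CPM, Vegfa and Pfkp were lower and none higher. Of 27 cell-cycle genes, 6 of which reached 50 CPM, Gas1, a growth arrest gene, was higher (1347 and 600.3 CPM), and no other was past 2-fold with 50 CPM. Of the lists of other cell types, Tagln, which rested on 2 cells as given above, was higher and 6 of 14 genes were lower in the mural list, of which Acta2, Rgs5 and Abcc9 had log2 ratios of 1.43, 0.25 and 0.0939 against cells with a Pdgfra UMI. Of the other lists, Tek alone was lower of 11 endothelial genes and Vcam1 of 18 myogenic genes, and none of 16 glial genes was higher. Only 1 of these endothelial, 1 of these myogenic and 2 of these glial genes reached 50 CPM, so the rest could not be called. None of 9 haematopoietic genes reached 50 CPM, so none could be called in either direction. Of 9 synovial and chondrocyte genes, 4 of which reached 50 CPM, Prg4, Col2a1 and Comp were higher and Cd55 lower. The muscle fibre gene Acta1 stood at 11.9 and 24.8 CPM. Tenocyte-like cells carried the lineage reporter: tdTomato stood at 1387 and 1121 CPM and was detected in 97.6% and 96.6% of tenocyte-like and other cells, or 92.6% and 84.5% after thinning. Hic1, the gene that drives Cre, was lower at 17.4 and 51.0 CPM, a log2 ratio of -1.55 (95% counting interval -1.91 to -1.21), and Smarcb1 stood at 75.7 and 89.6 CPM.

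The tenocyte-like cells were not uniform. Col22a1 and Angptl7 were detected mostly in different cells: Angptl7 had a UMI in 26.8% of the 235 cells with Col22a1 (95% exact binomial interval 21.3 to 33.0) and in 58.2% of the 306 cells without it (52.4 to 63.8). After thinning to 2000 UMIs these shares were 17.1% of 152 cells and 42.6% of 364. The pair was chosen after the values were seen, so the split describes the cells and is no test. It gave 172 cells with Col22a1 alone, at a median of 8175 UMIs, 178 with Angptl7 alone, at 6169.5, 63 with both and 128 with neither. At least 3 progenitor markers were carried by 46 cells with Col22a1 and 46 with Angptl7, while 5 cells with Col22a1 and 6 with Angptl7 carried at least 3 mural markers. Of 10674 genes with at least 10 UMIs in these cells, 148 (1.39%) were at least 2-fold higher in the Col22a1 cells and 119 (1.11%) at least 2-fold lower, with 50 CPM or more in the higher group. Of the 3260 genes that reached 50 CPM, these were 4.54% and 3.65%. Without the 2 cells with most UMIs of the gene, 35 of the 148 calls and 38 of the 119 were lost, among the second Aspn, Tnxb and C3.

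Cells with Col22a1 had more Postn, at 2208 and 229 CPM in Col22a1 and Angptl7 cells, Timp1 at 1058 and 58.1 CPM, Mgp at 9611 and 2574 CPM, Col26a1 at 264 and 10.1 CPM and the basement membrane collagen genes Col4a1 at 667 and 267 CPM and Col18a1 at 362 and 75.8 CPM. Of 31 FGF, PDGF, IGF and VEGF genes 4 were higher in Col22a1 cells and 4 lower, with a median log2 ratio of -0.43. The higher ones were Spry4 at 158 and 9.27 CPM (log2 ratio 4.09), Dusp6 at 180.5 and 19.4 CPM, Spry1 at 509.6 and 125 CPM and Spry2 at 204 and 91.0 CPM, all of which encode feedback inhibitors. The lower ones were Igfbp5 at 147 and 449 CPM, Igfbp3 at 15.6 and 129.8 CPM, Pdgfrl at 61.2 and 201 CPM and the ligand gene Fgf18 at 21.2 and 62.4 CPM. The ETS factor gene Etv4 stood at 111 and 8.43 CPM and Etv5 at 17.5 and 8.43 CPM. They also had more Wnt5a (104 and 26.1 CPM), Tagln (387 and 73.3 CPM, or 151 in Col22a1 cells without the 2 cells highest for it), Ptx4 (1097 and 388 CPM) and Arc (107 and 0.843 CPM), an activity-regulated gene known from neurons. Gm525 was at 155 CPM in Col22a1 cells and had no UMI in Angptl7 cells, and rested on few cells as given above.

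Several matrix genes ran the other way. Comp stood at 258 and 1451 CPM in Col22a1 and Angptl7 cells (log2 ratio -2.49), Chad at 221 and 1212 CPM, Prelp at 267 and 979 CPM, Fbln1 at 149.9 and 715 CPM, Mfap4 at 545 and 2206 CPM and the matrix gene Abi3bp at 570.1 and 2701 CPM. The WNT inhibitor genes Wif1 (10.6 and 359.8 CPM) and Sfrp2 (4.37 and 245 CPM) were lower in Col22a1 cells. Sfrp2 rested largely on 2 of the Angptl7 cells, which held 67.7% of its UMIs there, and it stood at 80.2 CPM without them. Of 34 tendon matrix genes, Postn and Ptx4 were higher in Col22a1 cells and 11 were higher in Angptl7 cells. The complement genes Serping1 (263 and 989 CPM), C1ra and C3 were higher in Angptl7 cells, C3 with 41.4% of its UMIs there in 2 cells. The chemokine gene Ccl2, at 124 and 11.0 CPM, rested on 2 of the Col22a1 cells, which held 96.0% of its UMIs there. Several main tendon genes were within 2-fold between the 2 groups: Col1a1 at 19123 and 23222 CPM, Col11a1 at 774 and 683 CPM, Col12a1 at 593 and 641 CPM and Thbs4 at 14030.3 and 9765 CPM. Of the rule genes Tnmd stood at 4057 and 4228 CPM and Scx at 1153 and 709.6 CPM, Chodl was higher in Col22a1 cells (2323 and 630.3 CPM), and Fmod (2827 and 8194 CPM) and Cilp2 (543 and 1881 CPM) were lower. The 63 cells with both lay between the others for Comp (823 CPM), Postn (1102) and Timp1 (283), but not for every gene. Tnmd, at 4879 CPM, and Prg4, at 698 CPM where the others had 297 and 655, lay above both groups. Tnc, at 340 CPM where the others had 704 and 410, lay below both.

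**Figure D5:**
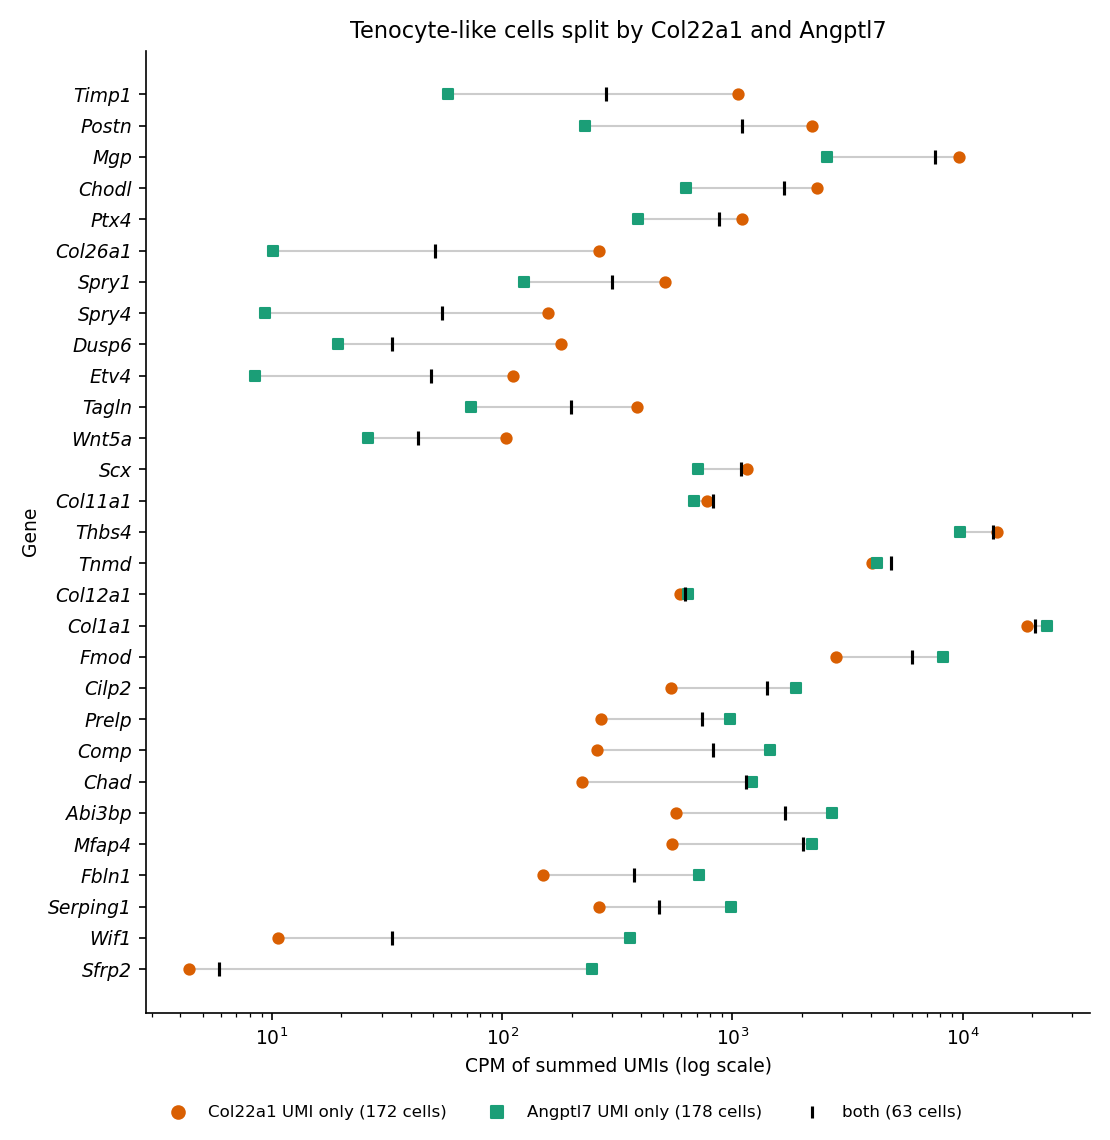
Levels (CPM of summed UMIs, log scale) of 29 genes (rows) in 172 tenocyte-like cells with a UMI of Col22a1 alone (orange circles), 178 with Angptl7 alone (green squares) and 63 with both (black ticks). Timp1 stood at 1058 CPM in Col22a1 cells and 58.1 in Angptl7 cells, Comp at 258 and 1451, and Tnmd at 4057 and 4228.

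The clusters drawn without the rule genes at resolution 2.0 divided the cells along the same line, although they used Col22a1 and Angptl7 among their genes. The cluster of 229 cells held 151 of the 172 cells with Col22a1 alone and 12 of the 178 with Angptl7 alone, and the cluster of 259 cells held 15 and 152 of them. Col22a1 was detected in 78.6% of the 229 cells and 18.5% of the 259, and Angptl7 in 17.9% and 71.4%. Their median depths were 7042 and 5976 UMIs.

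Mstn, the gene of myostatin, a TGF-beta family factor that limits muscle growth, stood at 111 and 0.203 CPM but was concentrated in few cells. It had a UMI in 38 of the 541, 37 of them in the main cluster, and 2 cells with 138 and 112 UMIs held 54.3% of its 460 UMIs. Of the 38 cells, 4 had Col22a1 alone, 20 Angptl7 alone, 6 both and 8 neither. Spp1, osteopontin, was found in 11 cells, and 1 of them held 68.2% of its UMIs. Levels of such genes summed over cells describe a few cells and not the whole population.

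In the sarcoma libraries the same rule found 5, 8, 366 and 78 cells in sarcomas 1 to 4, taken at endpoint, which is 0.0673%, 0.0975%, 5.27% and 1.14% of their kept cells. The sarcoma cells were deeper, at medians of 23971, 24913.5, 20005 and 28657.5 UMIs in that order against 7566 in muscle. Since the rule asks for 1 UMI per gene, these shares and that of muscle are not at equal depth. Cells with 6 or 7 of the genes numbered 0, 2, 33 and 0, where muscle held 357, and Thbs4 stood at 7067 CPM in the 366 cells of sarcoma 3 and at 63.9 CPM in the 78 cells of sarcoma 4. In those 78 cells Fmod was found in 100%, Mkx in 98.7%, Tnmd in 83.3% and Scx in 8.97%. The other cells of sarcoma 4 had Fmod at 350 CPM, Mkx at 29.7 CPM and Tnmd at 5.83 CPM.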

How the data were processed

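RNA of sorted tdTomato-positive cells was captured with the 10x Genomics Chromium Single Cell 3′ kit (version 2, per the labels). UMI counts per gene and cell barcode were deposited as 1 matrix per library, made by the authors with Cell Ranger, whose version 6.0.1 stands in the file headers, on the mm10 genome build per the submitters' processing notes. The sources used here do not say how cells were called. The deposited counts hold 28001 features, and no barcode had under 500 UMIs.

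From these counts, cells under 500 detected genes or above 10% mitochondrial UMIs were removed, which kept 8107 of 8658 muscle barcodes and 37519 over the 5 libraries, and the rule on the 7 genes was applied. Doublets were not removed. UMIs were summed over the cells of each group and scaled to 1000000. Ratios have exact conditional binomial intervals, levels exact Poisson intervals and shares exact Clopper-Pearson intervals at 95%, all covering counting error only. A gene counts as higher or lower past a 2-fold ratio with 50 CPM in the higher group, among genes with at least 10 UMIs. With 1 muscle library, there was no replicate and no test. Shares were also taken after thinning to 2000 UMIs per cell. Cells were clustered without the rule genes by Leiden (scanpy 1.11.5, 2000 variable genes, 30 components, 15 neighbours, resolution 1). The arithmetic of the calls was checked on simulated counts with no variation between cells and with planted changes larger than 2-fold. That check says nothing on variation among real cells or on genes near the 2-fold threshold.

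The members and the 32 gene lists were chosen with earlier results of these data known. Named are the 20 genes with the largest and the 20 with the smallest ratios, the 4 highest members of each list and list members past 2-fold. Sox6, Sox9, Acan, Acta1, Spp1 and the genes named in the split by Col22a1 and Angptl7 were chosen after their values were seen. Some genes that the rule would name are not reported here.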

Additional observations from a re-analysis of the deposited data

How the results depend on the processing

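No value has a replicate, so depth limits only the counting error, and leaving out a replicate gave no value. No paired analysis was possible because there is 1 muscle library and no result comes from a test. Asking for 2 of the 7 genes gave 7.52% tenocyte-like cells (610), a limit of 5% mitochondrial UMIs gave 5.98% (427), and the other 10 rules and filters gave 6.27% to 6.61%. At clustering resolution 2.0 the cluster with most of them held 47.9%, since it was divided. The thresholds set the counts of genes higher and lower in tenocyte-like cells, as their construction implies: 443 and 632 at 20 CPM, 168 and 214 at 100 CPM, 2392 and 1550 with no minimum level, 399 and 597 at 1.5-fold, and 122 and 154 at 4-fold. Every other alternative that gives both counts, with other rules, filters, comparison cells, scalings or cells left out, gave 225 to 297 higher and 312 to 452 lower genes. Among them, leaving out the highest 6% of Scrublet scores gave 285 and 424. In the split by Col22a1 and Angptl7 the counts higher and lower in Col22a1 cells were 304 and 252 at 20 CPM, 82 and 80 at 100 CPM, 359 and 259 at 1.5-fold, 41 and 31 at 4-fold, 167 and 127 after thinning, and 187 and 167 without cells that carried 3 markers of another type. Leaving out the 2 cells with most UMIs of each gene left 228 of the genes higher in tenocyte-like cells, and 113 and 81 of those of the split. That setting, the split, its alternatives and the settings that left out tenocyte-like cells with progenitor markers or outside the main cluster were chosen after seeing the data. Of 3929 alternative log2 ratios over 262 genes, 2764 were scored the same as the main value, 1156 as moved, and 9 changed sign. All but 1 of these 9 did so when the comparison cells changed. Against cells with a Pdgfra UMI, Abcc9 came to 0.0939, Acta2 to 1.43 and Rgs5 to 0.25. Where cells with mural markers were left out of the comparison cells alone, Abcc9 came to 1.601, Acta2 to 2.51, Fabp4 to 0.44, Kcnj8 to 2.65 and Rgs5 to 3.37, signs that this one-sided choice of cells on such markers can set by itself. With 2 of the 7 genes as the rule Acta2 came to 0.00301. Of 242 alternative ratios over 121 genes in the split, 162 were scored the same, 80 as moved, and none changed sign.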
